A study of Mus musculus with 3 samples.

Results

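The cytosolic ribosomal protein genes encode the proteins of the small and large subunits of the ribosome that translates messenger RNA in the cytoplasm. They are needed by every growing cell, and they served here as a constitutive set against which the promoter accessibility of cell clusters was read. Members were chosen by symbol alone: protein-coding autosomal genes of the mouse annotation named Rpl or Rps with a number, optionally followed by a, l or x, together with Rplp0, Rplp1 and Rplp2. The rule found 75 members among 21638 protein-coding genes, 46 of the large and 29 of the small subunit. It left out 4 X-linked genes (Rpl10, Rpl36a, Rpl39 and Rps4x) and a few autosomal genes with other suffixes, such as Rps3a1, Rpl22l1, Rpl36al and Rpl7l1.

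Accessibility was measured by single-nucleus ATAC-seq, in which the transposase Tn5 inserts adapters into open DNA and a barcode added in a droplet marks the fragments of each nucleus. The nuclei came from frozen sections of whole wild-type C57BL/6JRj mouse embryos and 1 library was made at each of 3 embryonic stages, E12.5, then E13.5 and last E15.5, with neither a treatment nor an allele that differed between them. The embryos were littermates of those used for spatial maps, and the sources used here do not give the number pooled per library. The libraries held 153, 970 and 756 nuclei in stage order, with 8603028, 66925016 and 39513357 unique fragments. In the same order 5, 32 and 138 nuclei shared many identical fragments with another barcode and may not be separate nuclei. With 1 barcode kept per such group, the counts of members called below became 57 lower in cluster 3, 26 higher in cluster 5 and 46 higher in cluster 11, against 62.6%, 32.0% and 42.1% of all genes.

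Nuclei were grouped by the 12 cluster numbers that the authors deposited. Clusters 5 and 11 were erythroid-like, with 9 of 9 erythroid markers (among them Gata1 and Klf1) at least 1.5-fold above the mean of the other clusters. Hbb-bs, Hbb-bt and Hemgn were among the leading 10 genes of cluster 5, and Hba-a1, Tal1 and Slc4a1 among those of cluster 11. Cluster 1 was mesenchyme-like with 8 of 8 markers (Col3a1, Col1a2 and Twist1 among its leading 10 genes, beside 1 olfactory-receptor gene) and cluster 9 neural progenitor-like with 8 of 8. Cluster 0 had 8 of 8 neuron markers raised, but its leading 10 genes held olfactory-receptor genes beside the neuronal Nefl and Stmn3, so it is called by its number. Clusters 0, 1 and 9 had at least 10 nuclei in every library and served as the reference. Their fragments were pooled for levels and ratios, while the fold changes weighted the 3 clusters equally. Cluster 3 also had 8 of 8 mesenchyme markers raised, but pheromone-receptor, olfactory-receptor and odorant-binding genes were among its leading genes, so it too is called by its number. The clusters were made from these same nuclei, so a test between clusters describes the clusters.

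As background, ribosomal protein genes share compact promoters in regions rich in CpG, and their messenger RNAs begin with a run of pyrimidines that lets translation respond to growth signals. A promoter here was the stretch from 1000 bp upstream to 100 bp downstream of the 5′ end of the gene in the GENCODE annotation, and a level was the number of unique fragments overlapping it per 1000000 fragments of the nuclei in question, the unit FPM below. In the 150 bases around the RefSeq start (100 before and 50 after), the median GC content of the members was 60%, against 60.7% over 20159 genes, while the median number of CpG was 13 against 9. The letters CCGGAAG, bound by ETS factors, occurred on either strand in 24 of 75 members (32%), against 9.48% of all genes. AAGATGGC, bound by YY1, occurred in 6 members (8%) against 2.36%, and GGGCGG, bound by SP1, in 33 (44%) against 41.5%. CCAAT, bound by NF-Y, occurred in 17 members (22.7%) against 24.5%, and TATAAA in 7 (9.33%) against 6.86%. On the coding strand, CTTTC began within 10 bases of the RefSeq start in 16 members (21.3%) against 2.84%. A match is a description of the letters and not a measured binding site. The median level at the RefSeq start in E13.5 was 11.7 FPM in the members with CCGGAAG and 11.2 in those without. It was 13.1 and 10.98 with and without CTTTC, 12.95 and 10.8 with and without GGGCGG, and 12.4 and 11.2 with and without TATAAA. For CCAAT it was 11.2 and 11.5 and for AAGATGGC 11.1 and 11.6. These differences were not tested.

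The promoters of 7 members that the results below turn on are shown from 100 bases before the RefSeq start to 20 from it (GRCm38.p6, the coordinates of mm10). They are the members with the highest levels (Rpl13a and Rps19), those that stood out in the erythroid-like clusters (Rpl37 and Rpl28), one whose GENCODE 5′ end lies far from its RefSeq start (Rps2), and the low paralogs Rpl39l and Rpl10l. Capitals mark the letters named above, on either strand, with CTTTC marked only near the start.
Rpl13a, chr7:45128726-45128845, minus strand: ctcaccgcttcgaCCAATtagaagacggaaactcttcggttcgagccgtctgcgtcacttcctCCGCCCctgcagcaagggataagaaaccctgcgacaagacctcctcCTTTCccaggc
Rps19, chr7:24884576-24884695, plus strand: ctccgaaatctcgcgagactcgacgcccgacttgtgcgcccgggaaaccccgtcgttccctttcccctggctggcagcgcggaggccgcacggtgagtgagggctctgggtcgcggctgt
Rpl37, chr15:5116513-5116632, plus strand: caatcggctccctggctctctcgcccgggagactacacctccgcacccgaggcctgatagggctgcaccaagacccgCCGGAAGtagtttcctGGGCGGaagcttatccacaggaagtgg
Rpl28, chr7:4792865-4792984, plus strand: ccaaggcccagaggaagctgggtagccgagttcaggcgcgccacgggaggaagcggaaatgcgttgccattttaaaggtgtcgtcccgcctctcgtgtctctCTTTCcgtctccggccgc
Rps2, chr17:24719963-24720082, plus strand: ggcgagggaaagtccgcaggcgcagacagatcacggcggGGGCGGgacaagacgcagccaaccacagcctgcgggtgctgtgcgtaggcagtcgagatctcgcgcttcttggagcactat
Rpl39l, chr16:10170128-10170247, plus strand: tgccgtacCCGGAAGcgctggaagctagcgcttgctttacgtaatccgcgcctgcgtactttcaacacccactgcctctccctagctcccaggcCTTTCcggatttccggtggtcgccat
Rpl10l, chr12:66284382-66284501, minus strand: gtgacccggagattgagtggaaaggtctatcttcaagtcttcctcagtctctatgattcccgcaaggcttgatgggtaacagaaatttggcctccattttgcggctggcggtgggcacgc
The very open promoter of Rps19 held none of these letters at a position that was counted (its CTTTC lies over 10 bases from the start), while that of the nearly closed Rpl39l held both CCGGAAG and CTTTC. The densest 200 bp of insertions of Rps19 in E13.5 centred at -203 bp from this RefSeq start, outside the bases shown. Matches near a start, CTTTC above all, thus depend on the annotated start.

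The members lay well above the typical gene. In stage order their median level was 6.97, 9.94 and 11.5 FPM, against medians of 2.21, 2.44 and 2.68 over all genes. In E13.5, 68 of 75 members were above the median of all genes and 16 were in the top 10%. The small subunit had a median of 10.4 FPM and the large subunit 9.73 in E13.5, and the order was the same in E12.5 (7.32 and 6.92) and E15.5 (11.5 and 11.2). These differences were small beside the spread between members.

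The highest member at E13.5 and E15.5 was Rpl13a, whose large-subunit protein also takes part in silencing of inflammatory transcripts, with 14.6, 27.4 and 32.2 FPM in stage order. Rps19, the small-subunit gene most often mutated in Diamond-Blackfan anaemia, had 16.0, 22.5 and 29.5 and was the highest at E12.5. Rps21 and Rpl27a had 21.5 and 21.4 FPM in E13.5. These 4 members were in the top 10% of genes in E13.5, and each was lowest in the E12.5 library.

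At the other end, Rpl10l, a paralog used in the testis, had 0.465, 0.164 and 0.0759 FPM, on 4, 11 and 3 fragments. Rpl39l, another testis paralog, had 0.465, 0.732 and 0.481. Rpl3l, which replaces Rpl3 in heart and skeletal muscle, had 0.930, 1.70 and 0.810. All 3 paralogs were below the median gene in every library, unlike Rps27l, a paralog induced by p53, which had 8.25, 10.2 and 12. In muscle-like cluster 10, which had 8 of 8 skeletal muscle markers raised, Rpl3l had 12 fragments at E13.5, or 2.38 FPM (95% counting interval 1.23 to 4.16), and 0 at E12.5 and E15.5. The reference had 1.07 (0.655 to 1.65) in that library, so the intervals overlapped, and the difference was not tested. The RefSeq start of Rpl3l lies 4865 bp from the GENCODE 5′ end counted here, so these values do not describe that start.

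For several other low members the GENCODE 5′ end lies away from the open start. The RefSeq start lay over 250 bp from the GENCODE 5′ end in 15 members, as far as 27498 bp in Rps14 and 8462 bp in Rpl3. In E13.5, the densest 200 bp of insertions was within 250 bp of the GENCODE end in 62 members and within 250 bp of the RefSeq start in 69. Rps2, a small-subunit protein near the messenger RNA channel, went from 2.06 to 18.4 FPM when counted at the RefSeq start. Rpl3, a large-subunit protein near the peptidyl transferase centre, went from 2.63 to 16.5, Rps10 from 2.33 to 11.9, Rps14 from 2.63 to 9.37, Rpl35 from 2.06 to 9.08 and Rpl17 from 0.897 to 8.17. Rps19, whose RefSeq start lies 305 bp away, went from 22.5 to 31.8 and was the highest member there. After this change 72 of 75 members were above the median gene (2.99), and the 3 that were not were Rpl10l, Rpl39l and Rpl3l. Values of members with a distant start are given at both positions where a result turns on them. In addition, 12 members share their promoter stretch with a neighbour on the other strand or nearby, such as Rpl7a with Med22 and Rps28 with Ndufa7, and their fragments cannot be assigned to either.

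**Figure D1:**
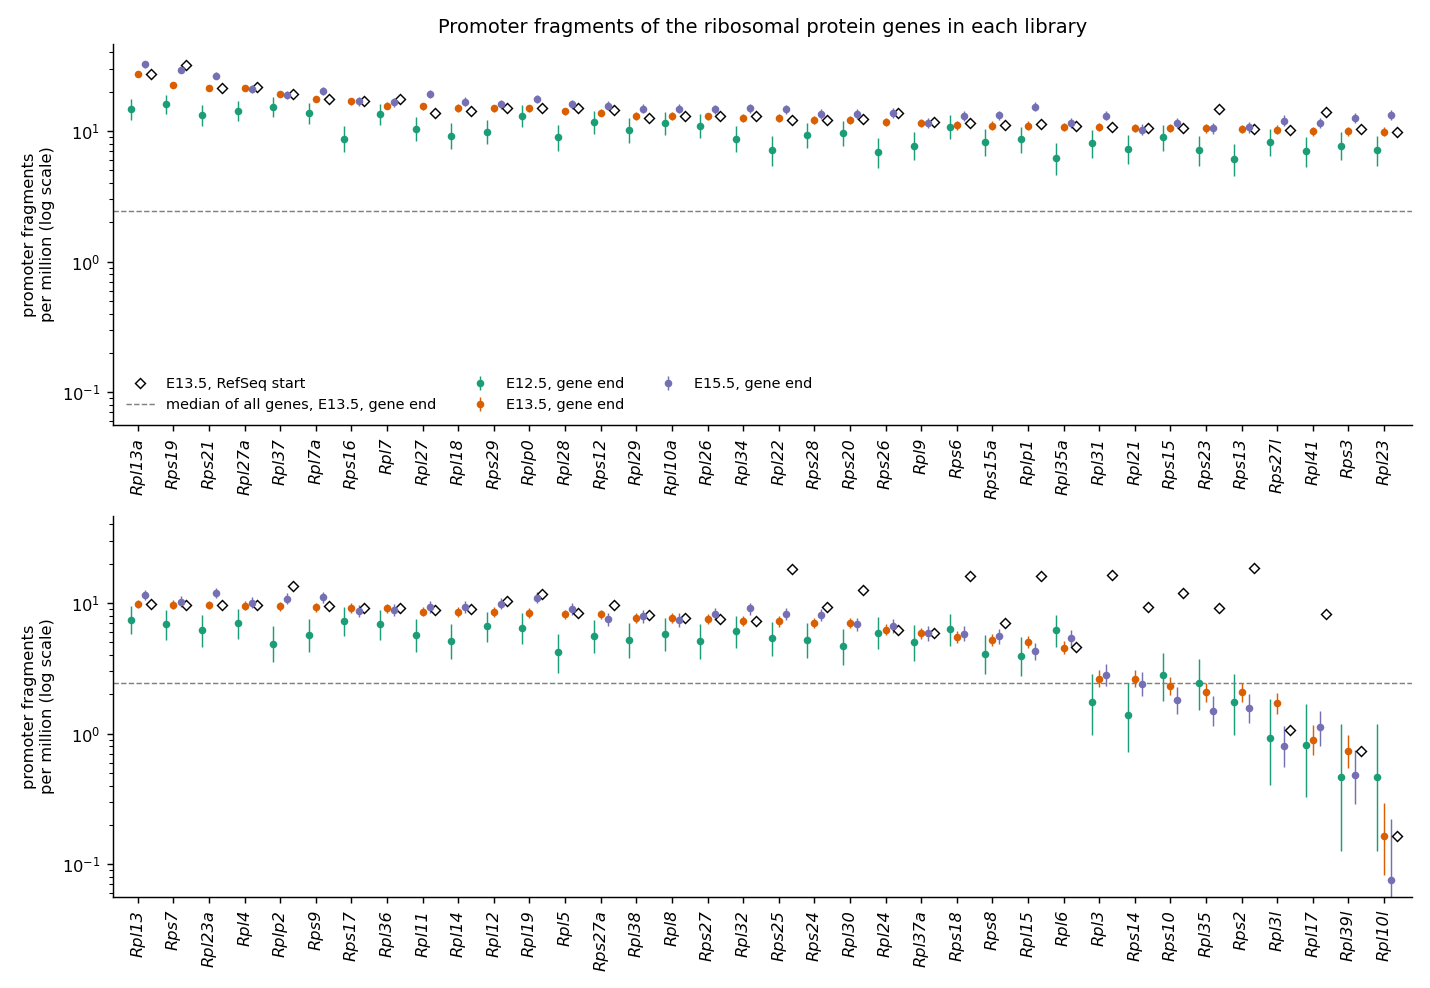
Promoter level in FPM (log scale) of 72 of the 75 members, ordered by E13.5. Filled circles give the level at the GENCODE 5′ end in the 3 libraries with exact 95% counting intervals, diamonds the E13.5 level at the RefSeq start, and the dashed line the median of all genes in E13.5 (2.44). The diamonds of Rpl3, Rps14, Rps10, Rpl35, Rps2 and Rpl17 sit far above their circles, while those of Rpl39l and Rpl10l do not.

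Summed over members, the level in FPM followed the share of fragments that lay in any promoter. In the reference the sum was 604 (577 to 632), 832 (819 to 845) and 921 (908 to 935) in stage order. In cluster 3 it was 397, 478 and 488, in cluster 5 it was 802, 1057 and 1669, and in cluster 11 it was 2771 in the 35 nuclei of E13.5 and 2152 in the 7 nuclei of E15.5. The single nucleus of cluster 11 at E12.5 had 36 member fragments and was not used further. Cluster 3 was below the reference and clusters 5 and 11 above it in every library used, with no overlap of the counting intervals.

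All promoters moved in the same order. They held 8.54%, 11% and 11.9% of the fragments of the reference in stage order, 5.61%, 6.54% and 6.92% of those of cluster 3, and 10.5%, 13% and 17.8% of those of cluster 5. In cluster 11 they held 33.8% at E13.5 and 28.5% at E15.5. Depth per nucleus differed as well. In stage order the median nucleus had 78743.5, 67231.5 and 55614 fragments in the reference and 132132, 104625 and 99142.5 in cluster 3. It had 44431, 62521 and 34051.5 in cluster 5, and in cluster 11 it had 12478 at E13.5 and 14495 at E15.5. A link between depth and promoter share was not tested. Across the 24 pairs of a cluster and a library with at least 10 nuclei (clusters 2 and 4, which hold shallow nuclei, left out), the member sum ranged from 397 to 2771 FPM, a 6.97-fold range. Per 1000 promoter fragments the same sums ranged from 6.51 to 9.40, a 1.44-fold range with a coefficient of variation of 7.43%. Cluster 2, left out of this range, had 6.24, 6.40 and 6.58 in stage order. Its median nucleus at E13.5 had 11147 fragments, close to that of cluster 11, which was kept. The ratio of member fragments to those of the mitochondrial ribosomal protein genes, an independent housekeeping set, ranged from 1.04 to 1.30.

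Closed promoters did not follow this order. Olfactory receptor genes, which are silent outside the nose, had 0.130 to 0.230 FPM per gene over the 24 pairs. They had 0.206, 0.149 and 0.168 in the reference and 0.210, 0.208 and 0.230 in cluster 3. Cluster 3 was thus close to the reference at E12.5, where cluster 0 alone had 0.228, and above it at E13.5 and E15.5. Cluster 5 had 0.212, 0.191 and 0.148 in stage order, and cluster 11 had 0.153 at E13.5 and 0.112 at E15.5. These differences were not tested. A member therefore had 25.2 to 242 times the fragments of an olfactory receptor gene, with the lowest value in cluster 3 at E12.5 and the highest in cluster 11 at E13.5. Over single nuclei of at least 20000 fragments, the share of fragments at members and the share at all other promoters had a Spearman correlation of 0.891 (84 nuclei of E12.5), 0.946 (769 of E13.5) and 0.95 (510 of E15.5). Both shares have the same denominator and the nuclei of a library are not independent samples, so these values are descriptions.

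**Figure D2:**
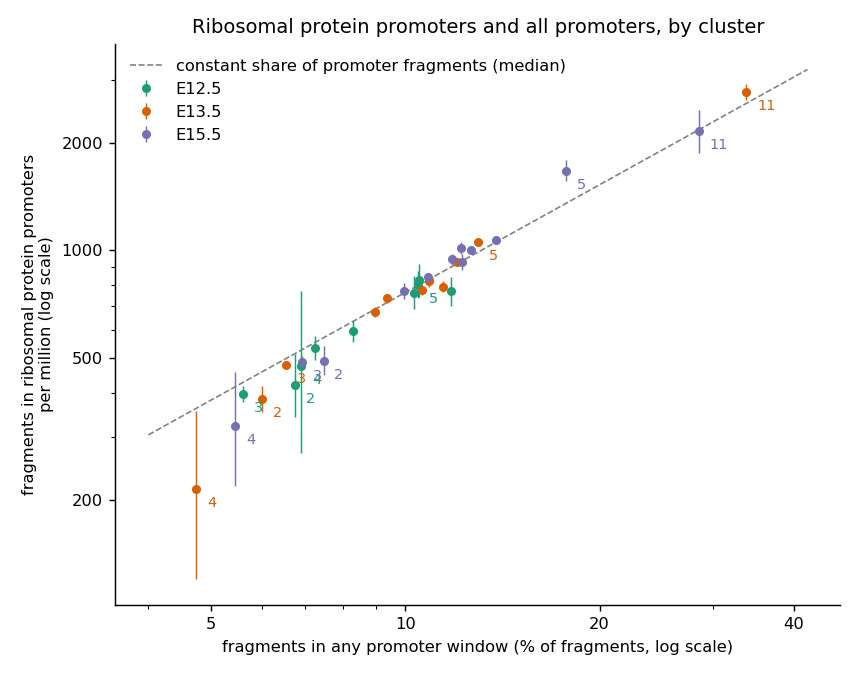
Summed promoter level of the members in FPM (y, log scale, exact 95% counting intervals) against the percent of fragments in any promoter (x, log scale), for each cluster and library with at least 5 nuclei. Clusters 2, 3, 4, 5 and 11 carry their numbers. The points lie near the dashed line of a constant 7.62 member fragments per 1000 promoter fragments, from cluster 4 at the lower left to cluster 11 at the upper right. Several lie off it. Cluster 5 of E15.5 is above it, while cluster 2 in every library and cluster 4 of E13.5 (4.53, 2.54 to 7.46) are among those below.

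In cluster 3 the promoters of the ribosomal proteins were less open per fragment, about as much as the promoters with enough fragments to pass the filter on low counts. In stage order the member sum was 0.658 (0.613 to 0.705), 0.575 (0.559 to 0.591) and 0.530 (0.508 to 0.552) of that of the reference. In edgeR's quasi-likelihood test over the sums of 5 clusters in 3 libraries, 58 of 70 members tested were lower and none was higher at an adjusted p under 0.05. Over all 12477 genes tested, 61.9% were called lower and 0.537% higher. The median log2 fold change was -0.79 over members and -0.75 over all genes tested, so the members fell about as far as the typical promoter that passed the filter. Without the filter the medians were -0.78 and -0.47, and 70.7% of members and 34.5% of all genes were lower.

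The lower calls covered both subunits, with 35 of 42 large-subunit and 23 of 28 small-subunit members. Of the 19 members mutated in Diamond-Blackfan anaemia, an inherited failure of red cell production, 14 (73.7%) were lower. This share lay between the 82.9% of all members tested and the 61.9% of all genes. Rps19 had 10.1, 12.1 and 11.3 FPM in cluster 3 in stage order and 21.1, 25.1 and 31.9 in the reference. Every value of cluster 3 was below every value of the reference, and the log2 fold change was -1.17 ± 0.17 (SE; adjusted p = 9.7e-09 by edgeR). Rps29, another anaemia gene, had 4.03, 7.85 and 8.31 against 14.3, 17.5 and 17.6, again without overlap (-1.23 ± 0.20, adjusted p = 1.3e-07 by edgeR). Rpl35a had 2.30, 5.96 and 6.05 against 8.76, 12.7 and 12.9, and Rpl27a had 10.9, 11 and 7.93 against 14.9, 22.3 and 20.9. For Rpl13a, cluster 3 had 9.21, 15.6 and 21.0 against 16.5, 31.7 and 32.5, so that the highest value of cluster 3 passed the lowest of the reference, although cluster 3 was lower within each library (-0.88 ± 0.16).

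Members with known roles outside or at the edge of the ribosome had values on both sides of that median. Rps6, whose protein is phosphorylated downstream of growth signalling, had a log2 fold change of -1.05 ± 0.21 in cluster 3, and the stalk proteins Rplp0, Rplp1 and Rplp2, which recruit translation factors, had -0.88 ± 0.19, -0.90 ± 0.21 and -0.73 ± 0.23. Rpl11, which with Rpl5 and the 5S RNA binds Mdm2, had -0.85 ± 0.24. Rpl5 itself, at -0.51 ± 0.24, missed the threshold (adjusted p = 0.053 by edgeR). Rps10 (0.55 ± 0.44) and Rpl3 (0.01 ± 0.39) were the only members with a value above 0, and neither passed the test. Counted at the RefSeq start, both were lower, at -0.83 ± 0.21 and -0.83 ± 0.19, and 70 of 72 members were called, all of them lower, where 64.4% of all genes were lower. The 2 members not called there were Rpl10a and Rps27.

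Scaled to promoter fragments instead of all fragments, a choice made after seeing the data, no member was called in cluster 3 by edgeR (5 of 71 had an unadjusted p under 0.05, and DESeq2 with its own size factors called 0 of 70). The shares over all genes were 2.35% higher and 0.685% lower, and the median log2 fold change was -0.06 over members and -0.00 over all genes. In stage order, members per promoter fragment were 1.00 (0.934 to 1.07), 0.966 (0.939 to 0.993) and 0.910 (0.873 to 0.949) of the reference, so the intervals of E13.5 and E15.5 lay below 1. Rps19 had -0.43 ± 0.15 on this scale (adjusted p = 0.081 by edgeR). On all fragments, 31 of 63 members (49.2%) were called without the E13.5 library and 30 of 70 (42.9%) without E15.5, against 63 of 71 (88.7%) without E12.5. The shares of all genes called lower were 41.2%, 35.0% and 55.4% in the same order.

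In erythroid-like cluster 5 the members were more open. In stage order their sum was 1.33 (1.20 to 1.46), 1.27 (1.24 to 1.30) and 1.81 (1.69 to 1.94) times that of the reference. In the same edgeR fit 26 of 70 members (37.1%) were higher and none was lower, where 31.4% of all genes were higher and 19.1% lower. The median log2 fold change was 0.44 over members and 0.25 over all genes. The higher calls again covered both subunits, with 16 of 42 large-subunit and 10 of 28 small-subunit members, and 6 of the 19 anaemia genes.

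Rplp0, the stalk protein that anchors Rplp1 and Rplp2, had 29.7, 23.3 and 49.2 FPM in cluster 5 against 14.3, 15.1 and 19.1 in the reference. Every library of cluster 5 was above every library of the reference, and the log2 fold change was 0.87 ± 0.20 (adjusted p = 0.00014 by edgeR). Rpl28 had 10.9, 24.1 and 49.2 against 12, 13.9 and 16.0. It was below the reference at E12.5, on 7 fragments, and above it in the other libraries. Rpl11 had 9.38, 13.8 and 43.3 against 6.49, 8.63 and 9.27 (1.05 ± 0.25), with 6 fragments in cluster 5 at E12.5.

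The call of Rps19 in cluster 5 depended on the position counted. At the GENCODE end it had 17.2, 30.4 and 64.9 FPM. This was below the reference level given above at E12.5 and above it at E13.5 and E15.5. It was not called there (0.40 ± 0.18, adjusted p = 0.059 by edgeR), while at the RefSeq start it was higher (0.47 ± 0.17, adjusted p = 0.015 by edgeR). Members not called at the GENCODE end also included Rpl5 (0.35 ± 0.27), Rps6 (0.37 ± 0.23) and Rps29 (0.24 ± 0.22). The E15.5 sums of cluster 5 came from 10 nuclei and were the highest of the 3 libraries for Rplp0, Rpl28 and Rpl11. Without E15.5, 7 of 70 members (10.0%) were called, where 18.1% of all genes were higher, and without E13.5, 8 of 63 (12.7%), where 15.4% were. Without the library as a block, 11 of 70 (15.7%) were called, where 22.1% of all genes were higher. With clusters 2 and 4 added to the fit, 23 of 65 (35.4%) were called against 38.0%. In these 4 fits the share of members called was below that of all genes, the reverse of the order first given. Without E12.5, 31 of 71 (43.7%) were called against 29.9%.

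Scaled to promoter fragments, 7 of 71 members (9.86%) were higher in cluster 5 and none was lower, where 17.3% of all genes were higher and 25.4% lower. They included Rpl28, Rplp0, Rpl11, Rpl27a and Rps27l, with log2 fold changes from 0.44 in Rpl27a to 0.71 in Rpl11. The median was 0.11 over members and -0.05 over all genes. Members per promoter fragment were 1.08 (0.981 to 1.20), 1.08 (1.05 to 1.1) and 1.21 (1.13 to 1.30) times the reference in stage order.

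The other erythroid-like cluster, 11, had the most open members. Their sum at E13.5 was 3.33 times the reference (3.15 to 3.52), and at E15.5 it was 2.34 times (2.03 to 2.68). In an edgeR fit of 6 clusters in E13.5 and E15.5, 46 of 72 members (63.9%) were higher and none was lower, where 42.1% of all 14242 genes were higher and 4.57% lower. The median log2 fold change was 1.69 over members and 0.99 over all genes tested, whose 25th percentile was -4.14. Without the filter on low counts the medians were 1.67 and -0.76, and 58.7% of members and 27.5% of all genes were higher. The gap between members and all genes thus depends on which genes are tested, and the members are among the promoters with more fragments. Of the members called, 27 were of the large and 19 of the small subunit, and 11 of the 19 anaemia genes were among them.

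Rpl37, a large-subunit protein that binds zinc, led with 122 FPM at E13.5 and 91.4 at E15.5 against 19.2 in the reference in both libraries, a log2 fold change of 2.55 ± 0.29 (adjusted p = 4.8e-17 by edgeR). Rps28 had 62.0 and 102 against 13.2 and 13.6. Rps21 had 105 and 122 against 23.4 and 28.2, and Rpl13a had 143 and 60.9 against 31.7 and 32.5. All 4 lay above the reference in both libraries, though the E15.5 values rest on 6 to 12 fragments each.

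Rpl28 differed in value between the erythroid-like clusters. It had 24.1 FPM in cluster 5 at E13.5 (314 fragments) and 13.6 in cluster 11 (7 fragments), close to the 13.9 of the reference, and its log2 fold change in cluster 11 was -0.07 ± 0.60. The difference between clusters 5 and 11 was not tested. Rpl3 and Rps14 had 0 fragments in cluster 11 in E13.5 and E15.5 at the GENCODE end, while at the RefSeq start they had 7 and 1 (Rpl3) and 16 and 3 (Rps14) fragments. There Rps14 was higher by 1.38 ± 0.46 on the log2 scale and Rpl3 had -0.46 ± 0.57. Rps2 was higher by 2.16 ± 0.33 at the RefSeq start, where 52 of 72 members were called higher and none lower, against 43.6% and 5.29% of all genes.

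Scaled to promoter fragments, cluster 11 had 6 of 71 members higher and 5 lower, where 13.49% of all genes were higher and 23.2% lower. The higher ones included Rpl37 (1.01 ± 0.24), Rps28, Rpl10a, Rps21 and Rpl14. The lower ones were Rpl28 (-1.63 ± 0.49), Rpl18 (-1.42 ± 0.46), Rps27 (-1.84 ± 0.68), Rpl3 and Rps14, of which the last 2 had no fragment there. The RefSeq start of Rpl18 lies 2614 bp from the GENCODE end. On all fragments, Rpl18 had 0.14 ± 0.55 in cluster 11 at the GENCODE end and was higher at the RefSeq start (1.87 ± 0.38). The median was 0.14 over members and -0.54 over all genes. Members per promoter fragment were 1.08 (1.03 to 1.14) and 0.975 (0.848 to 1.12) times the reference in E13.5 and E15.5.

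**Figure D3:**
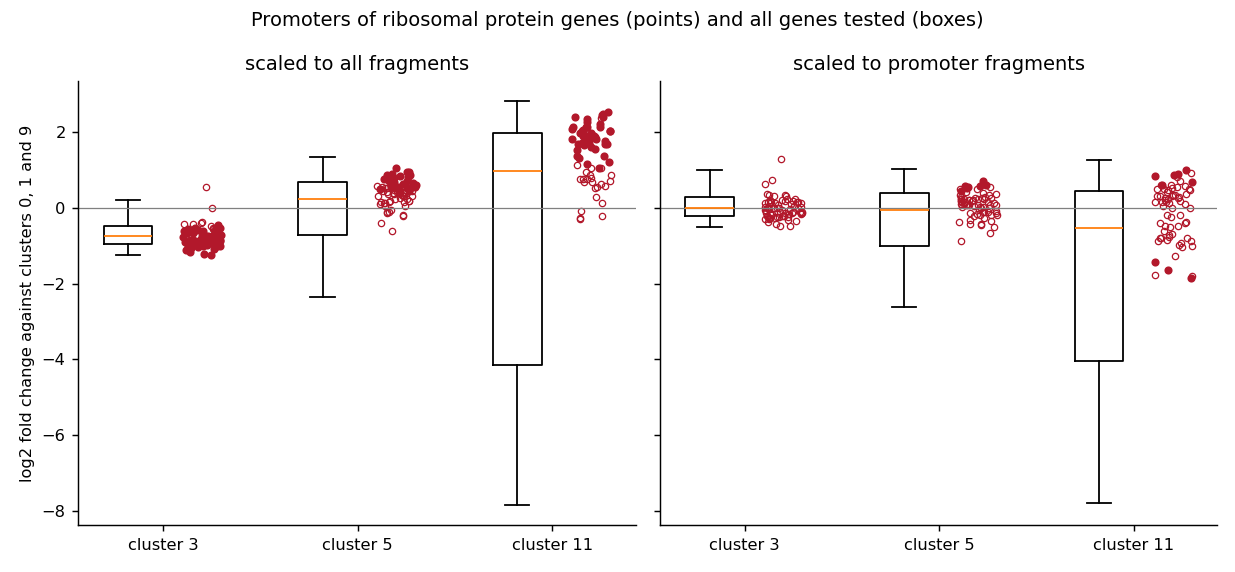
Log2 fold changes against clusters 0, 1 and 9 in clusters 3, 5 and 11, scaled to all fragments (left) and to promoter fragments (right). Points are members, filled where the adjusted p of edgeR is under 0.05, and boxes give the quartiles and the 5th to 95th percentiles of all genes tested. Rpl3 and Rps14, with 0 fragments in cluster 11, are not drawn there. The members centre at -0.79, 0.44 and 1.69 on the left and at -0.06, 0.11 and 0.14 on the right.

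**Figure D4:**
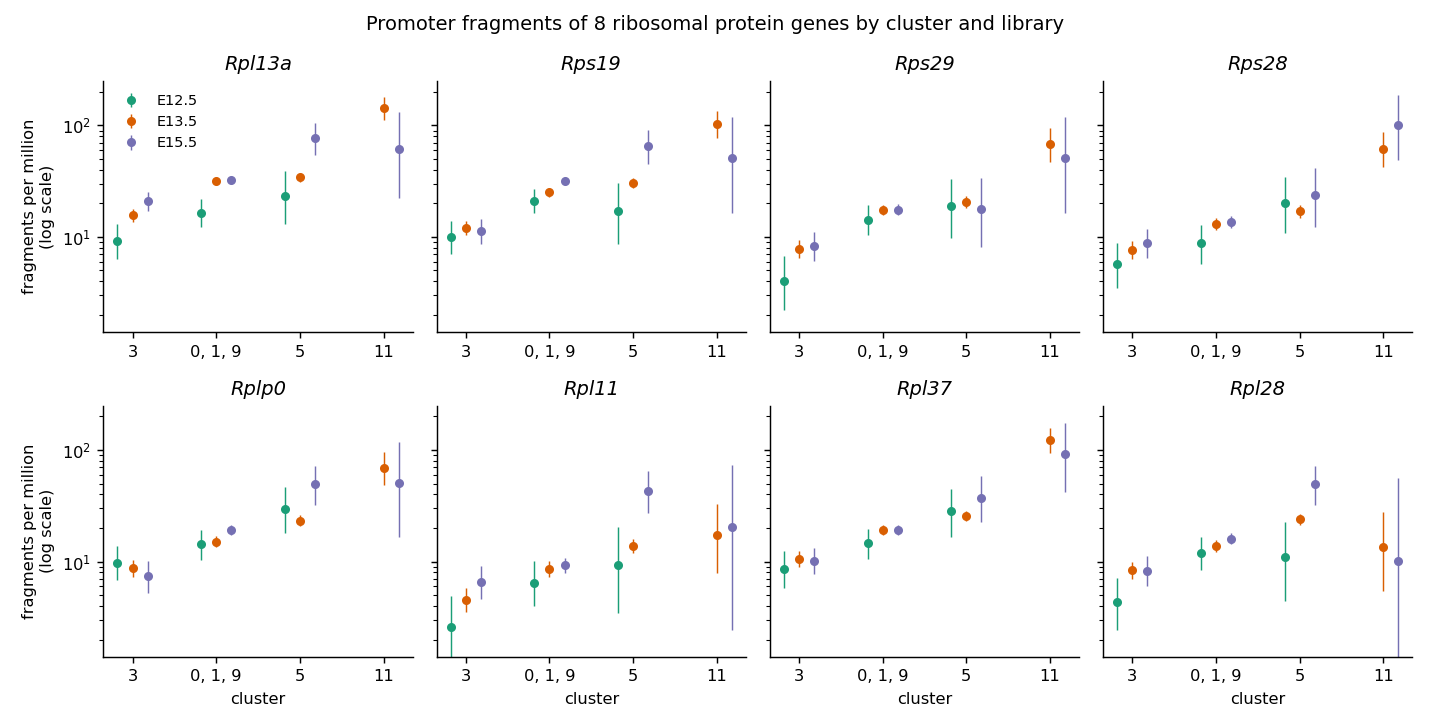
Promoter level in FPM (log scale) of 8 members in cluster 3, the pooled reference (clusters 0, 1 and 9), cluster 5 and cluster 11, by library, with exact 95% counting intervals. The 1 nucleus of cluster 11 at E12.5 is not drawn. Cluster 3 is lowest and cluster 11 highest for Rpl13a, Rps19, Rps29, Rps28 and Rpl37 at E13.5, while Rpl28 is not raised in cluster 11.

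Other housekeeping lists had medians of the same sign as the members in each cluster. In cluster 3, 47 of 71 mitochondrial ribosomal protein genes, 27 of 34 proteasome genes, 40 of 55 translation factors and 15 of 18 ribosome biogenesis genes were lower and none was higher, with medians from -0.72 to -0.83. These shares ran from 66.2% of the mitochondrial list to 83.3% of the biogenesis list, against 61.9% of all genes. In cluster 5, 28 of 71, 14 of 34, 32 of 55 and 3 of 18 were higher in the same order, with medians of 0.54, 0.46, 0.68 and 0.39, and 1 translation factor was lower. The share was 16.7% of the biogenesis list, 39.4% of the mitochondrial list, 41.2% of the proteasome list and 58.2% of the translation factors, against 31.4% of all genes. In cluster 11, 39 of 76, 21 of 35, 37 of 56 and 14 of 18 were higher and none was lower, shares of 51.3% to 77.8% against 42.1%. Scaled to promoter fragments, no gene of these lists was called in cluster 3, while in cluster 5 the translation factors had 21 of 55 higher and 1 lower, the mitochondrial list 10 and 2 of 71, the proteasome list 4 and 0 of 33 and the biogenesis list 2 and 1 of 18, against 17.3% and 25.4% of all genes. In cluster 11 the same lists had 12 and 2 of 55, 9 and 8 of 76, 7 and 2 of 33 and 3 and 0 of 18, against 13.49% and 23.2%. The shares higher were 38.2% of the translation factors, 14.1% of the mitochondrial list, 12.1% of the proteasome list and 11.1% of the biogenesis list in cluster 5, and 21.8%, 11.8%, 21.2% and 16.7% in cluster 11. The median of the mitochondrial list there was -0.25, against 0.14 over the cytosolic members.

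Around the start, the height of members over their flanks differed between clusters more than their height over other genes did at E13.5. Within 100 bp of the RefSeq start, members had 56.7 insertions per kb and gene, scaled to 1000000 fragments, in the reference at E13.5, 29.6 in cluster 3, 77.6 in cluster 5 and 212 in cluster 11. Against all other genes the members were 2.49, 2.47, 2.67 and 2.67 times as high in the same order. At E15.5 the factors were 2.63, 2.46, 3.09 and 2.55, so cluster 5 was highest there. The shallow cluster 4 had 2.57, 1.56 and 2.19 in stage order, on 16, 14 and 32 member insertions, too few to read. Between 2000 and 3000 bp away, members at E13.5 had 2.11, 2.20, 2.73 and 3.65 in the reference and clusters 3, 5 and 11. The flanks thus differed far less between clusters than the starts. The start stood 26.9-fold above the flanks in the reference, 13.4-fold in cluster 3, 28.5-fold in cluster 5 and 58.1-fold in cluster 11, against 16.5, 8.63, 17.9 and 41.5 for other genes. Nucleosome-free fragments made up 66.3% to 78.9% of member fragments over the 24 pairs of cluster and library and 68.6% to 81.5% of all promoter fragments, and both were highest in cluster 11 at E13.5.

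**Figure D5:**
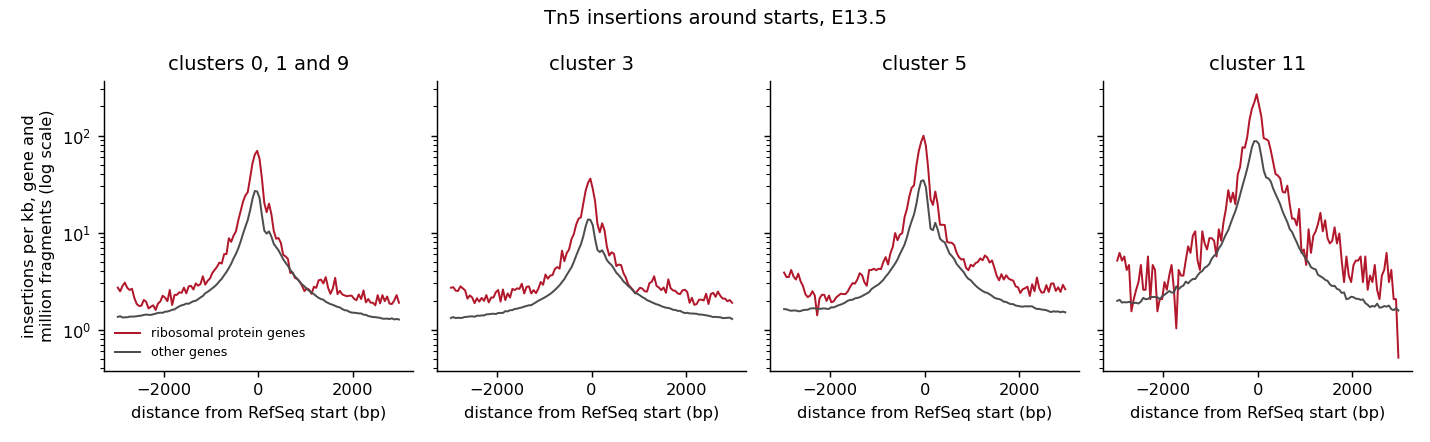
Tn5 insertions per kb and gene, scaled to 1000000 fragments, (log scale) against the distance from the RefSeq start, in bins of 50 bp, for members and all other genes in E13.5. The members peak above other genes in all 4 panels, at 29.6 within 100 bp of the start in cluster 3 and at 212 in cluster 11.

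How even the members were among themselves was measured over clusters 0, 1, 3, 5 and 9 of E13.5, in the genes with at least 50 fragments in each. The median SD of log2 levels was 0.50 over the 22 members and 0.56 over 2891 other genes on all fragments, and 0.22 and 0.26 on promoter fragments. Counting error alone gave a median of 0.13 for both. The mitochondrial ribosomal protein genes had 0.22 on promoter fragments (17 genes) and proteasome genes 0.18 (9 genes). Among the members that varied little were Rpl29 (SD 0.36), from 8.80 FPM in cluster 3 to 17.6 in cluster 1, Rpl26 and Rpl22, a member with a known role in lymphocyte development. Rpl27a varied most (0.61), from 11 in cluster 3 to 34.5 in cluster 5, with Rpl28, Rpl27 and Rpl7a next. On promoter fragments the SDs of Rps26 and Rpl22, 0.06 and 0.07, lay below their own counting errors of 0.15, so the order of the most even members cannot be read on that scale.

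The shallow cluster 2 held fewer member fragments per promoter fragment than the reference. In stage order it had 6.24 (5.08 to 7.59), 6.40 (5.89 to 6.94) and 6.58 (5.98 to 7.23) per 1000 promoter fragments, against 7.07, 7.57 and 7.75 in the reference. The intervals did not overlap in E13.5 and E15.5. Cluster 4 had only 16, 15 and 31 member fragments, too few to read.

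Over all nuclei the member sum was 561 (545 to 577), 784 (777 to 791) and 876 (867 to 885) FPM in stage order. E15.5 stood 1.56 times above E12.5 (1.51 to 1.61). With 1 library per stage there is no replicate check, the intervals cover counting error only, and stage and library cannot be told apart. The ratio was 1.58 in cluster 0, 1.39 in cluster 1, 1.23 in cluster 3, 2.08 in cluster 5 and 1.55 in cluster 9. Per promoter fragment it was 1.08 (1.04 to 1.11) over all nuclei, with a share of fragments in promoters of 7.75% at E12.5 and 11.2% at E15.5. By cluster it was 1.05 (0.972 to 1.14) in cluster 0, 1.19 (1.08 to 1.31) in cluster 1, 0.995 (0.932 to 1.06) in cluster 3, 1.23 (1.097 to 1.37) in cluster 5 and 1.06 (0.965 to 1.15) in cluster 9.

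Of the 71 members with at least 10 fragments at E12.5, 66 were higher at E15.5, and 36 (50.7%) by at least 1.5-fold, against 39.8% of 13525 genes. The median ratio was 1.51 over members and 1.41 over all genes. The share of all genes with any rise was not counted, but with a median above 1 most of them were higher at E15.5 too. Rpl13a had the highest ratio, 2.20 (1.83 to 2.67), and Rplp2 (2.20, 1.60 to 3.09) and Rpl5 (2.14, 1.52 to 3.11) were close to it. The ratio was 1.84 for Rps19 (1.54 to 2.21) and 1.21 for Rps6 (0.965 to 1.52). The lowest was that of Rpl35, at 0.612 (0.366 to 1.06), whose promoter stretch did not reach the RefSeq start. Counted there, Rpl35 went from 7.32 to 9.24 FPM. Of the other members below 1, Rps10 went from 8.49 to 12.4, Rps2 from 13.4 to 23.1 and Rps18 from 13.6 to 19.9 at the RefSeq start, while Rpl6 stayed lower, at 6.16 and 5.39. Of the 75 members, 55 had an interval above 1, and Rpl10l alone had one below it, on 4 and 3 fragments (0.163, 0.0239 to 0.965). The share of all genes with an interval above 1 was not counted, and intervals are narrower for promoters with more fragments. The 55 is therefore no result about the members as against other genes.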

How the data were processed

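The deposited fragment files list unique fragments with a barcode and a count of read pairs, made by the authors with Cell Ranger ATAC 2.0.0 against mm10, which shifts ends to the Tn5 cut and removes duplicates. The submitters' processing notes also name Signac 1.6.0 and Seurat 4.1.0. A deposited table gave library, cluster and fragment counts for 1879 nuclei; 20 of its columns were not used. Recomputed totals differed from it by at most 0.604% per nucleus. Promoters came from GENCODE vM21 (chromosomes 1 to 19 and X, without Pcdh and Ugt genes, as the study did) and RefSeq starts from GRCm38.p6 (the entry with the lowest NM number).

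Fragments were summed per cluster and library and tested with edgeR 4.0.16 in R 4.3.3 (quasi-likelihood, low counts filtered, all fragments as library size, library as block, Benjamini-Hochberg over all genes), on 15 sums for clusters 3 and 5 and 12 for cluster 11. DESeq2 1.42.0 was an alternative. The libraries are different stages and serve as the only replicates. With the library as block, a p-value sets a difference between clusters against how much such differences varied from library to library. That spread was shared over the clusters of a fit and drawn toward the spread typical of the genes tested. A small p therefore does not measure the variation of that gene between libraries alone. A cluster was named where at least 3 markers of a list were raised 1.5-fold, unless its leading 10 genes spoke for another identity. Intervals are exact 95% (Poisson, Clopper-Pearson or conditional binomial) and cover counting error only, since amplified fragments of a nucleus are not independent. Scripts were tested on simulated data. Doublets were not removed. 1 barcode occurred in more than 1 library. Barcodes were linked where 10% or more of the fragments were identical.

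The members and lists were chosen with earlier results of these data known. Named genes were the 6 highest and 6 lowest members, the 5 called with the smallest p per contrast and direction, the 4 most and 4 least even, and a fixed set of paralogs, stalk proteins and anaemia genes. Others were named after their values were seen. Some genes that these rules name are not reported here.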

Additional observations from a re-analysis of the deposited data

Results flagged for a closer look

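Barcodes with at least 1000 fragments outside the cell table also held member fragments, and they are listed because data outside the comparisons above showed a level beyond the limit that a count of 0 allows. The 36 such barcodes of E12.5 had 850 member fragments per 1000000 (748 to 961), the 546 of E13.5 had 224 (216 to 232) and the 272 of E15.5 had 271 (261 to 282). Promoters in general held 10.8%, 3.53% and 4.03% of their fragments, and members made up 7.86, 6.35 and 6.72 per 1000 promoter fragments. The nuclei in the table had 561, 784 and 876, so the member level outside it was higher in E12.5 and lower in E13.5 and E15.5, together with the level of all promoters.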

How the results depend on the processing

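Of the 120 alternatives for the counts and ratios, 96 stayed within the spread or within 1.5 times the count. Beyond them, the scaling moved the counts most: TMM factors called 0, 8 and 11 members in clusters 3, 5 and 11, in either direction (6 at an unadjusted p under 0.05 in cluster 3 by edgeR), DESeq2 with its own size factors 0, 4 and 9 (3 in cluster 3), and promoter fragments as scale 0, 7 and 11. With TMM the median of all genes moved to 0.01, -0.08 and -0.52 on the log2 scale, cluster 5 had 7 members higher and 1 lower and cluster 11 had 6 and 5. With the size factors of DESeq2 these splits were 3 and 1, and 1 and 8. Of all genes, TMM called 16.0% higher and 26.2% lower in cluster 5 and 13.1% and 21.1% in cluster 11, and DESeq2 10.6% and 25.6%, and 5.69% and 18.5%. In cluster 3 they called 2.47% and 0.521% (TMM) and 1.47% and 0.128% (DESeq2). Without the library block, 11 were called in cluster 5. Leaving out a library gave 30 to 63 in cluster 3 (35.0% to 55.4% of all genes lower) and 7 to 31 in cluster 5 (15.4% to 29.9% higher). As the mean over nuclei, the ratio of summed members was, as the median over libraries, 0.509 in cluster 3 (0.417 to 0.679) and 1.73 in cluster 5 (1.45 to 1.96), and it was 2.996 in cluster 11 and 1.495 between E15.5 and E12.5, with 1.18 per promoter fragment in cluster 5. A window of 1000 bp on either side gave 3.66 in cluster 11 (1.19 per promoter fragment) and 1.47 between stages. The stage ratio was 1.494 as the median over members and 1.61 with 5 clusters weighted equally. For the 5 members called with the smallest p in each contrast, no fold change changed sign, and 26 of 225 alternatives lost the call. Other named members did change sign. Scaled to promoter fragments, Rpl5 in cluster 3 went from -0.51 to 0.23 and Rps6 in cluster 11 from 0.52 to -1.03. Rps10 and Rpl3 in cluster 3 changed sign at the RefSeq start, as given above. The cause of these shifts was not tested. The RefSeq start, the promoter scale and, for the ratios, equal weights of clusters 0, 1 and 9 were chosen after seeing the data. No paired analysis was possible because each stage had 1 library, so no replicate number pairs the stages. Clusters were compared within libraries, with the library as block. Depth limits clusters 4 and 11 and the E12.5 library.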
